A study of Mus musculus with 12 samples.

Results

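The question addressed here was how the response of mouse embryonic fibroblasts to glucose starvation differed between wild-type cells and cells lacking Carm1. For each gene the change on starvation in wild-type cells was subtracted from the change in knockout cells on the log2 scale, so that a positive difference means a higher response in the knockout, whether it rose more, fell less or rose where wild type fell. The difference was computed from 8 of the 12 samples of the series, all of the RNA-seq libraries, with each gene symbol represented by its transcript with the most counts. It passed the threshold (Benjamini-Hochberg adjusted p below 0.05 in the edgeR quasi-likelihood test) for 1850 of 13882 genes tested, which are the called genes.

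Mouse embryonic fibroblasts are connective tissue cells grown from embryos, here of C57BL/6 strain at passages 3 to 5. The 4 groups, of 2 libraries each, were wild-type cells in rich nutrients (0 h in the titles), wild-type cells after 18 h of glucose starvation, and Carm1 KO cells in the same pair of conditions. Rich medium was DMEM with 10% serum and starvation medium was DMEM without glucose with 10% dialyzed serum, so that dialysis of the serum and time in the medium changed together with glucose and cannot be told apart from it. The labels say neither which exons the knockout lacks nor whether the lines or replicates came from separate embryos or cultures, and p-values thus reflect no more than the scatter among the libraries at hand, possibly a technical one.

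CARM1 is an arginine methyltransferase that modifies histone H3 and other proteins and assists transcription factors. Cells deprived of glucose usually slow growth, induce stress genes of the endoplasmic reticulum and the integrated stress response, and raise genes of autophagy and lysosomes, the pathway by which cells digest their own contents. Genes of inflammation, of serum response and of the actin cytoskeleton are held in check or induced by separate factors, among them NF-kB, SRF and the YAP-TEAD complex, which respond to cytokines, growth factors, adhesion and energy state.

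Library totals ran from 8447016 to 28155438 counts, and levels are CPM (library-scaled counts relative to the library total). Carm1 stood at 207 and 204 CPM in the wild-type rich libraries, 176 and 164 CPM in the wild-type starved ones, 48.1 and 70.8 CPM in the knockout rich ones and 53.9 and 58.6 CPM in the knockout starved ones; its responses did not differ past the threshold (0.19 ± 0.26, adjusted p = 0.68), but did without knockout rich replicate 2 (0.51, adjusted p = 0.000162). The knockout rich replicates lay far apart: 2072 of 10276 genes with a mean of at least 10 CPM differed more than 2-fold between them, against 46 to 50 in each other group, and replicate 1 had the fewest counts of all libraries. Since the groups share 1 estimate of the spread, counts of called list members are given with and without each replicate of this pair. The genotypes also differed at Xist, an X-linked RNA, with 18657 to 23751 counts in each wild-type library and 0 to 6 in each knockout library, while the Y-linked Ddx3y, Eif2s3y, Kdm5d and Uty were at 0 CPM throughout. Of the cell type markers, the fibroblast genes summed to 7920 to 11390 CPM in wild type and 16540 to 19810 CPM in the knockout. The largest part in the knockout was Fn1, at 9078 to 10590 CPM, against 2594 to 3419 CPM in wild type. Members went both ways. Dcn, a matrix proteoglycan of fibroblasts, was at 0.372 to 0.762 CPM in wild type against 1172 to 1954 CPM in the knockout. Thy1 was likewise low in wild type, at 0.0465 to 0.214 CPM against 124 to 180 CPM. Col1a1 was instead higher in wild type, at 1400 to 2807 CPM against 636 to 1207 CPM. The 8 endothelial markers summed to 2.35 to 5.02 CPM in wild type and 132 to 245 CPM in the knockout, there mostly Cdh5. Tie1 and Emcn were at 0 in every library. Kdr went the other way, at 1.78 to 4.50 CPM in wild type and 0 to 0.0861 CPM in the knockout. The 9 leukocyte markers summed to 5.74 to 8.45 CPM in wild type and 16.98 to 36.6 CPM in the knockout, with Tyrobp at 0. None of the tested endothelial, leukocyte, epithelial or muscle markers had a called difference between responses; 1 of 11 fibroblast markers (S100a4) and 1 of 4 neural markers (Map2) did. The part of cell makeup and of these marker differences in the results was not tested, and in bulk RNA fewer cells of a type and less RNA per cell cannot be told apart.

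Responses differed in both directions. Of the 13882 genes, 13.3% were called, 7.42% (1030 genes) with the higher response in the knockout and 5.91% (820 genes) with the lower one, while 4161 genes had an unadjusted p below 0.05. The median difference over all genes tested was 0.0047 on the log2 scale, so that the scaling placed the genotypes' responses level. Across the 13882 genes the wild-type and knockout responses had a Pearson correlation of 0.221 and a Spearman correlation of 0.273, a description over genes, which are not independent replicates and share the libraries' scaling. Among the called genes the wild-type response was the larger, with a median size of 1.10 against 0.62 in the knockout, while over all genes the medians were 0.53 and 0.43.

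**Figure D1:**
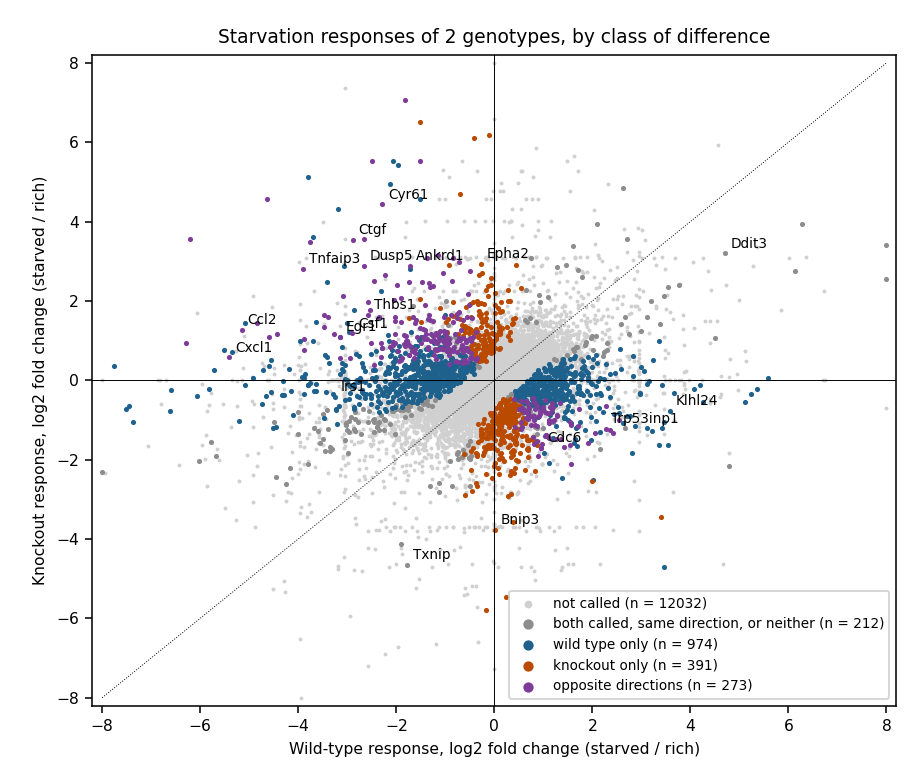
Starvation response in wild-type cells (x axis) against that in knockout cells (y axis), each a log2 fold change, 1 point per gene tested, with values beyond 8 drawn at the edge; colours give the class of the 1850 called genes and the dotted line marks equal responses. Called genes lie off that line: 974 responded in wild type only, 391 in the knockout only and 273 in opposite directions.

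By the test of each genotype's own response, 2060 of 13882 genes rose and 2501 fell in wild type. In the knockout 1171 rose and 1357 fell. Counts of list members that rose or fell are read against these totals. Sorting the called genes by the same tests gave 9 classes. In the fit of all 8 libraries the largest held genes that changed in wild type only, 569 that fell and 405 that rose. The order turned without knockout rich replicate 2: 1352 genes fell in wild type and rose in the knockout and 1178 rose in both, against 952 and 825 that fell or rose in wild type only. In the fit of all libraries the knockout response was also smaller than 0.5 on the log2 scale in 453 of the 569 genes that fell in wild type only. The same held for 301 of the 405 that rose in wild type only. Genes that changed in the knockout only were fewer, 237 that fell and 154 that rose, with 209 and 129 of them under 0.5 in wild type. Opposite responses were found for 273 genes, 188 that fell in wild type and rose in the knockout (median -1.28 and 1.04) and 85 that rose in wild type and fell in the knockout (median 0.93 and -0.91). In 53 genes both responses rose, in 100 both fell, to different extents, and in 59 neither response passed its own test.

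In the fit of all libraries the group that stood apart was most often the starved wild type. The rich knockout had the widest spread between replicates, with 2072 of 10276 genes over 2-fold apart against 46 to 50 in each other group. What part this spread had in the shares that follow was not tested. For each gene the group whose mean log2 level lay farthest from the other 3 was noted: it was the starved wild type in 49.5% of called genes (32.9% of all genes tested), the starved knockout in 23.0% (21.0%), the rich wild type in 17.6% (22.3%) and the rich knockout in 9.89% (23.8%). Seen from the genotypes, 826 of the 1850 genes (44.6%) differed between genotypes after starvation only and 298 (16.1%) in rich medium only. A further 508 (27.5%) differed in both media in the same direction and 216 (11.7%) in both in opposite directions. These genotype contrasts use the same libraries as the difference between responses and are given only beside it.

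**Figure D2:**
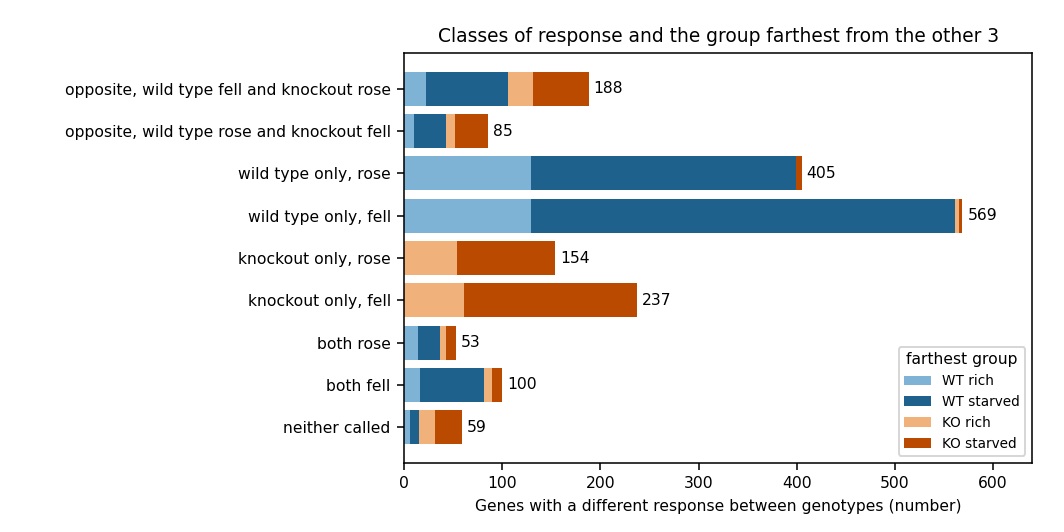
Number of called genes in each of the 9 classes (bars, with the total printed at the end), split by colour into the group whose mean level lay farthest from the other 3. The starved wild type fills most of both wild-type-only bars (432 of 569 genes that fell and 270 of 405 that rose), and the starved knockout most of both knockout-only bars.

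How many genes were called depended on the library left out. With 1 of the 6 libraries outside the knockout rich pair left out, 452 to 487 genes were called, while 7040 were called without knockout rich replicate 1 and 8020 without replicate 2. These were 49.4% of 14263 genes tested (26.2% higher and 23.2% lower) and 56.4% of 14225 (32.2% and 24.2%), the shares against which list counts from these fits are read, while the other 6 fits called 3.17 to 3.41%. In a fit without either of these, the pair adds nothing to the spread and the lone library is assumed to vary like the other groups. All 1850 genes kept their direction in each of the 8 fits, and 373 (271 higher and 102 lower in the knockout response) were called in all 8. Of the 273 genes with opposite responses, 264 had the same class without either knockout rich replicate, and 179 were called in all 8 fits (134 and 45 by direction). Each of these fits shares all but 1 library with the fit that chose the genes, so agreement in direction or class was largely built in. Genes given with values passed in all 8 fits unless the sentence says otherwise.

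Most of the called inflammatory genes fell on starvation in wild type and rose in the knockout. NF-kB is a family of transcription factors kept inactive by inhibitor proteins, and its targets include chemokines, adhesion molecules and those same inhibitors. Of 27 genes listed for NF-kB and inflammation, 17 had a higher response in the knockout and 0 a lower one, 11 of them falling in wild type and rising in the knockout, with a median difference over the list of 1.85. By role these were 10 of 15 ligands and effectors, 5 of 7 inhibitors and 2 of 5 NF-kB subunits. Without knockout rich replicate 1 or 2 the count was 23 in each case, and 12 to 13 without any 1 other library.

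Ccl2, the chemokine that draws monocytes, stood at 61.6 and 62.5 CPM in wild-type rich libraries and at 1.59 and 1.87 CPM after starvation. In the knockout it stood at 176 and 169 CPM in rich medium and at 427 and 403 CPM after starvation. Starvation lowered Ccl2 in wild type and raised it in the knockout, with no overlap of the libraries in either genotype, and the difference was 6.42 ± 0.19 (adjusted p = 2.93e-05). Cxcl1, a neutrophil chemokine, went from 46.7 and 48.6 to 1.16 and 1.07 CPM in wild type and from 127 and 139 to 198 and 198 CPM in the knockout (5.99 ± 0.19, adjusted p = 2.99e-05). Csf1, the growth factor of macrophages, had nearly the same level in both rich groups, 447 and 447 CPM in wild type and 480 and 462 CPM in the knockout. After starvation Csf1 stood at 60.9 and 58.7 CPM in wild type and at 1066 and 1071 CPM in the knockout (4.08 ± 0.16, adjusted p = 7.01e-05). The genotypes were thus alike in rich medium and far apart after starvation for this gene. Cxcl5, another neutrophil chemokine, fell in both genotypes, from 6.27 and 5.24 CPM to 0 counts in wild type, at least 102-fold, and from 58.1 and 58.3 to 11.8 and 11.6 CPM in the knockout.

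Tnfaip3 encodes A20, an enzyme that ends NF-kB signalling and is itself induced by it. Tnfaip3 stood at 40.01 and 42.2 CPM in wild-type rich libraries and at 2.59 and 2.87 CPM after starvation. In the knockout it went the other way, from 20.4 and 24.7 to 155 and 162 CPM, and the difference was 6.71 ± 0.22 (adjusted p = 2.99e-05). Of its 2 RefSeq promoters 1 held a match to the NF-kB pattern, taken here as GGGNN directly followed by TTTCC on either strand (N, any base), 12 bases before the start, and the other (chr10:19011914-19012213) held 0. In the whole list 11 of 25 RefSeq promoters (44%) held such a match, against 1.67% of the 13784 promoters of tested genes. Among promoters of called members 5 of 12 (41.7%) held one. Promoters here run from 250 bases before to 50 bases after an annotated start, a match is a description of the sequence and not a binding site, and the list was drawn from known targets of the factor. The window of Tnfaip3 with the match (GRCm38.p6, chr10:19015361-19015660, minus strand) is shown because this gene had opposite responses and one of the largest differences, with these bases in capitals.
Tnfaip3: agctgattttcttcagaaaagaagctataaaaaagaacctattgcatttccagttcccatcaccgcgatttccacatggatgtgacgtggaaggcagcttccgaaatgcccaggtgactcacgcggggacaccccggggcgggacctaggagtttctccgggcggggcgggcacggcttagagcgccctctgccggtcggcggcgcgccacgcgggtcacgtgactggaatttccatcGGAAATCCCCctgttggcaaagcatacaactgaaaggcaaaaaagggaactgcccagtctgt

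Targets of YAP and TEAD behaved in the same way in part. YAP is a coactivator that is held out of the nucleus by the Hippo kinases and binds DNA through TEAD factors. Of 22 genes listed, 9 had a higher response in the knockout and 0 a lower one (median 0.96), among them 8 of 12 targets and 1 of 10 components of the pathway. Leaving out knockout rich replicate 1 gave 15 higher and 1 lower, without replicate 2 there were 15 and 5, and 6 to 7 were higher without any 1 other library.

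Ctgf, a secreted matrix protein and a standard readout of YAP, stood at 143 and 137 CPM in wild-type rich and 19.3 and 18.7 CPM in wild-type starved libraries. In the knockout it was low in rich medium, at 11.2 and 10.8 CPM, and rose to 131 and 125 CPM on starvation (6.43 ± 0.18, adjusted p = 2.93e-05). The starved knockout thus sat near the rich wild type, and the rich knockout below the starved wild type. Cyr61, a related matrix protein, fell from 278 and 285 to 57.6 and 58.2 CPM in wild type and rose from 47.3 and 36.1 to 922 and 870 CPM in the knockout (6.71 ± 0.23, adjusted p = 2.99e-05). Ankrd1, a nuclear and sarcomeric ankyrin repeat protein, fell from 51.2 and 55.2 to 16.3 and 15.9 CPM in wild type and rose from 115 and 72.4 to 716 and 671 CPM in the knockout. Its difference was 4.61 ± 0.31 (adjusted p = 0.000616), and 5.03 or 4.32 without knockout rich replicate 1 or 2. F3, the tissue factor that starts coagulation, fell from 17.1 and 19.0 to 11.8 and 9.97 CPM in wild type and rose from 20.3 and 13.8 to 138 and 130 CPM in the knockout (3.72 ± 0.30).

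The TEAD core motif CATTCC was found on either strand in 15 of 23 promoters of the list (65.2%), against 12.6% of promoters of all tested genes. Among promoters of called members it was found in 6 of 10 (60%). The list was drawn in part from known YAP-TEAD targets, so its share is not independent of that choice. Ankrd1 had 2 matches, shown in capitals in the reverse orientation, 210 and 123 bases before the start (GRCm38.p6, chr19:36119795-36120094, minus strand). The sequence is shown as that of a YAP-TEAD target with opposite responses.
Ankrd1: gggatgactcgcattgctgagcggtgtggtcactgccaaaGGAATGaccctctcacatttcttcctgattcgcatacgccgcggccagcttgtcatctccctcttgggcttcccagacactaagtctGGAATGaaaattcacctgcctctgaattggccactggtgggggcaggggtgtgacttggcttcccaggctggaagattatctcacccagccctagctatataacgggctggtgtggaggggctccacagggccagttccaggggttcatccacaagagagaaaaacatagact

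Called genes of the contractile cytoskeleton all had the higher response in the knockout in the fit of all libraries. SRF binds the CArG box and drives actin, myosin and tropomyosin genes together with coactivators that sense free actin. Of 21 genes, 15 had a higher response in the knockout and 0 a lower one (median 1.92), 8 of them with a fall in wild type and a rise in the knockout. They comprised 13 of 17 contractile genes and 2 of 4 factors. There were 17 higher without either knockout rich replicate (1 lower without replicate 2) and 9 to 10 without any 1 other library.

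Srf itself stood at 107 and 114 CPM in wild-type rich and at 52.4 and 48.1 CPM in wild-type starved libraries, and at 63.9 and 74.4 CPM in knockout rich and 117 and 123 CPM in knockout starved ones (1.93 ± 0.19, adjusted p = 0.00185). The starved knockout stood just above the rich wild type. Tpm1, a tropomyosin that lines actin filaments, fell from 992 and 1072 to 323 and 341 CPM in wild type and rose from 709 and 705 to 1097 and 984 CPM in the knockout (2.19 ± 0.18, adjusted p = 0.00105). Myh9, the heavy chain of non-muscle myosin, fell from 2569 and 2734 to 1219 and 1167 CPM in wild type and rose from 1539 and 2029 to 3664 and 3429 CPM in the knockout (2.14 ± 0.23). Tgfb1i1, a focal adhesion protein, rose in the knockout only, from 56.0 and 57.5 to 188 and 183 CPM, with 69.4 and 66.2 against 58.3 and 62.0 CPM in wild type (1.88 ± 0.16, adjusted p = 0.00128).

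A CArG box was present in 8 of 21 promoters of the list (38.1%), against 1.33% over all tested genes. Among promoters of called members it was present in 7 of 14 (50%). The list was chosen with SRF in mind, so its share is not independent of that choice. Srf has 2 CArG boxes, 82 and 62 bases before the start, shown in capitals because the gene both encodes the factor and changed in opposite directions (GRCm38.p6, chr17:46556113-46556412, minus strand).
Srf: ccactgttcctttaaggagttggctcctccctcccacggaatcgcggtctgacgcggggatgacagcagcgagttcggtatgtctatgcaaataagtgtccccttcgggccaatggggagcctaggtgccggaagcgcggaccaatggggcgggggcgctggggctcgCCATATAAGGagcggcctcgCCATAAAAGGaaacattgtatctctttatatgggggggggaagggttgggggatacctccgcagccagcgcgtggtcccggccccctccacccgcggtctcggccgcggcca

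Immediate early genes, which cells switch on within minutes of a growth signal, moved likewise. Of 28 genes, 17 had a higher response in the knockout and 0 a lower one (median 2.07), made up of 4 of 7 AP-1 subunits, 9 of 13 other factors and 4 of 8 feedback inhibitors. The difference was positive in all 28, called or not. The counts without knockout rich replicate 1 were 23 higher and 1 lower, without replicate 2 there were 25 and 0, and 12 to 14 were higher without any 1 other library. Egr1, a zinc finger factor, fell from 102 and 112 to 11.8 and 12.4 CPM in wild type and rose from 80.2 and 76.2 to 170 and 165 CPM in the knockout (4.24 ± 0.18, adjusted p = 8.24e-05). Fosl1, an AP-1 subunit, fell from 68.4 and 69.4 to 15.8 and 18.1 CPM and rose from 192 and 160 to 514 and 479 CPM (3.52 ± 0.21). Dusp5, a phosphatase that switches off ERK kinases, fell from 13.8 and 15.9 to 2.31 and 2.35 CPM and rose from 7.88 and 12.8 to 76.3 and 80.1 CPM (5.56 ± 0.34). In rich medium the knockout stood lower than wild type for Egr1 and Dusp5 and higher for Fosl1, and after starvation it stood above wild type for all 3. Egr2, a relative of Egr1, fell in wild type only, from 0.743 and 1.14 CPM to 0 counts, at least 17.4-fold, and stood at 22.03 and 21.3 against 15.0 and 12.7 CPM in the knockout.

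**Figure D3:**
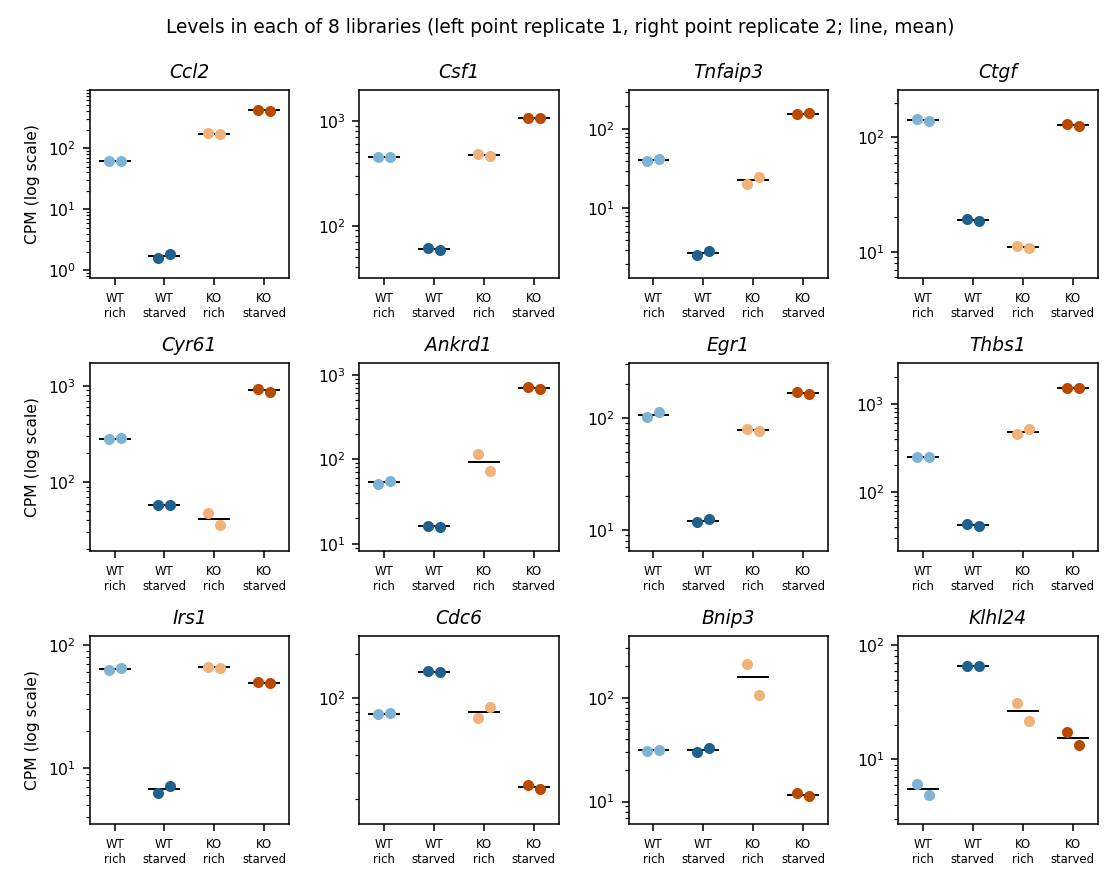
CPM (log scale) of 12 genes in each of the 8 libraries, with groups along the x axis, replicates as points and the group mean as a line. In the upper rows the starved wild type is the lowest group for Ccl2, Csf1, Tnfaip3, Ankrd1, Egr1 and Thbs1 while the starved knockout is the highest; the lowest row holds a gene that fell in wild type only (Irs1), one with the reverse pair of responses (Cdc6), one that fell in the knockout only (Bnip3) and one that rose in wild type only (Klhl24).

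Genes of TGF-beta signalling and of the matrix also had more higher responses than lower ones. Of 20 TGF-beta genes, 11 were higher in the knockout response and 1 was lower (median 1.41), and of 41 collagen and matrix genes 10 were higher and 1 lower (median 0.34). Without knockout rich replicate 1 these counts were 17 and 2 for TGF-beta and 21 and 4 for the matrix, without replicate 2 they were 17 and 2 and 27 and 5, and without any 1 other library 6 to 7 and 5 were higher. Thbs1, a matrix glycoprotein that activates TGF-beta, fell from 250.4 and 248 to 43.3 and 40.6 CPM and rose from 451 and 512 to 1523 and 1501 CPM (4.22 ± 0.18). Smad3, which carries the TGF-beta signal to the nucleus, changed in wild type only, from 69.6 and 67.3 to 18.2 and 17.2 CPM, with 95.4 and 96.3 against 80.8 and 74.5 CPM in the knockout (1.65 ± 0.17). The matrix list split by role: 4 of 7 proteases and inhibitors, 3 of 13 glycoproteins and 2 of 13 collagens were higher.

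Interferon-stimulated genes gave 7 higher and 1 lower of 34 (median 1.58). Starvation lowered 28 of the 34 in wild type and raised 0, while in the knockout 8 fell and 2 rose. Levels of the list were already apart between genotypes. The median log2 difference, knockout minus wild type, was -4.425 in rich medium and -3.628 after starvation. What part the lower knockout levels had in these responses was not tested. Irf1, a factor that induces such genes, fell from 94.5 and 95.3 to 18.3 and 19.7 CPM in wild type and rose from 34.5 and 44.0 to 58.8 and 59.5 CPM in the knockout (2.91 ± 0.22). Ddx58, which encodes the RNA sensor RIG-I, fell in wild type only, from 145 and 133 to 33.8 and 34.9 CPM, while the knockout stood at 48.0 and 33.7 CPM in rich medium and 46.3 and 40.7 CPM after starvation (2.11 ± 0.26). The starved levels thus lay close together for Ddx58 and apart for Irf1. Without knockout rich replicate 1 the list had 16 higher and 3 lower, without replicate 2 it had 12 and 1, and 4 were higher without any 1 other library.

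DNA replication genes went the other way, with the largest count of lower responses. Entry into S phase requires licensing of origins by the MCM helicase and its loaders, after which polymerases and clamp proteins copy DNA at forks. Of 49 genes, 31 had a lower response in the knockout and 0 a higher one (median -1.18). Starvation lowered 38 of them in the knockout and raised 0, while in wild type 11 rose and 6 fell. By role 9 of 12 licensing genes, 16 of 23 fork genes and 6 of 14 nucleotide supply and control genes were called. Of the 31, 10 rose in wild type and fell in the knockout, and 19 fell in the knockout only. A fit without knockout rich replicate 1 gave 43 lower and 2 higher, without replicate 2 there were 42 and 2, and 11 to 16 were lower without any 1 other library.

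Cdc6, which loads the MCM helicase, rose from 76.9 and 78.4 to 152 and 150 CPM in wild type and fell from 72.1 and 86.0 to 24.9 and 23.4 CPM in the knockout (-2.67 ± 0.19, adjusted p = 0.00071). The rich groups overlapped, and the starved groups lay far apart. Cdc45, a subunit of the replicative helicase, rose from 76.3 and 81.0 to 138 and 138 CPM and fell from 142 and 116 to 67.3 and 61.3 CPM (-1.81 ± 0.20). Lig1, the ligase that joins Okazaki fragments, rose from 213 and 224 to 319 and 331 CPM and fell from 235 and 215 to 102 and 97.5 CPM (-1.75 ± 0.17).

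The E2F patterns TTTCCCGC or TTTGGCGC were found on either strand in 13 of 48 promoters of the replication list (27.1%), against 2.85% of promoters of all tested genes. Among promoters of its called members they were found in 7 of 28 (25%). In the class that rose in wild type and fell in the knockout the share was 9.20% of 87 promoters, and in the class that fell in the knockout only it was 9.24% of 249. Both classes hold genes of the replication list, 10 and 19, and are not separate from it. In the other classes the share ran from 2.39% (wild type only, fell) to 8.47% (neither called). Cdc6 is shown with its match in capitals, 138 bases before the start (GRCm38.p6, chr11:98907901-98908200, plus strand), as the replication gene with the most negative difference.
Cdc6: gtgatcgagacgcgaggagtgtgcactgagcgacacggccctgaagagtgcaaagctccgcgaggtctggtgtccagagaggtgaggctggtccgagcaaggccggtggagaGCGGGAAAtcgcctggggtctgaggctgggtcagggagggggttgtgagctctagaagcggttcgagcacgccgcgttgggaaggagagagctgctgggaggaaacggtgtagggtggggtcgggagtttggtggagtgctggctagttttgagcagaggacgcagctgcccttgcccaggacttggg

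Genes of mitosis, the later phase of the same cycle, differed in the reverse direction from those of replication. Of 32, 12 had a higher response in the knockout and 0 a lower one (median 0.67), of which 8 fell in wild type only and 4 fell in both genotypes. Ube2c, an enzyme that targets mitotic proteins for destruction, fell from 196 and 192 to 51.6 and 47.6 CPM in wild type and stood at 88.1 and 95.6 against 103 and 99.8 CPM in the knockout (2.11 ± 0.17, adjusted p = 0.00105). Plk1, a mitotic kinase, fell in both, from 151 and 157 to 25.9 and 26.2 CPM in wild type and from 67.7 and 85.1 to 43.2 and 46.8 CPM in the knockout (1.79 ± 0.21). Leaving out knockout rich replicate 1 gave 23 higher and 3 lower, without replicate 2 there were 18 and 7, and 3 were higher without any 1 other library.

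Autophagy genes that were called had lower responses in the knockout. Of 47 genes, 18 rose and 4 fell in wild type, while 6 rose and 10 fell in the knockout. The difference passed the test for 14, all with the lower response in the knockout, and the median difference was -0.48. Of these, 7 rose in wild type only, 3 rose in wild type and fell in the knockout, 2 fell in the knockout only and 2 rose in both. By role they were 2 of 4 initiation genes, 4 of 11 genes of the PI3-kinase complex and its WIPI effectors, 1 of 10 conjugation genes, 2 of 5 ATG8 genes, 3 of 8 receptors and 2 of 9 regulators. The counts without knockout rich replicate 1 were 28 lower and 1 higher, without replicate 2 there were 23 and 8, and 6 to 8 were lower without any 1 other library. Among all genes tested in the first 2 of these fits 23.2% and 24.2% were lower.

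Nbr1, a receptor that brings cargo to autophagosomes, rose from 126 and 114 to 311 and 293 CPM in wild type and stood at 159 and 135 against 126 and 121 CPM in the knockout (-1.60 ± 0.19, adjusted p = 0.00333). Pik3c3, the lipid kinase that marks sites of autophagosome formation, rose from 23.7 and 23.6 to 48.9 and 48.3 CPM in wild type and fell from 34.1 and 30.8 to 23.1 and 22.7 CPM in the knockout (-1.54 ± 0.19, adjusted p = 0.00394). Trp53inp1, which binds ATG8 proteins, rose from 6.27 and 6.03 to 31.8 and 27.5 CPM in wild type and fell from 56.5 and 35.8 to 20.1 and 19.0 CPM in the knockout (-3.50 ± 0.33, -3.10 or -3.79 without knockout rich replicate 1 or 2). Its starved knockout level thus remained above the rich wild type. Bnip3, a receptor for mitochondria and a hypoxia target, stood at 30.9 and 31.6 CPM in wild-type rich and 30.3 and 32.8 CPM in wild-type starved libraries. In the knockout Bnip3 fell from 212 and 105 to 12.1 and 11.2 CPM (-3.78 ± 0.43, adjusted p = 0.0031), a difference of -3.15 without knockout rich replicate 1 and -4.19 without replicate 2, so that its size moved with that pair.

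The following autophagy genes were chosen after their values were seen. Gabarapl1, an ATG8 protein, rose from 25.2 and 27.5 to 58.8 and 62.5 CPM in wild type but already stood at 100.4 and 116 CPM in the knockout rich libraries and at 93.01 and 93.9 CPM after starvation (-1.41 ± 0.19). Wdr45, a WIPI protein, rose in both genotypes, from 12.7 and 12.9 to 61.7 and 64.3 CPM in wild type and from 10.2 and 11.2 to 18.0 and 18.6 CPM in the knockout (-1.52 ± 0.20). The kinase gene Ulk1, which starts autophagy, stood at 45.03 and 44.6, then 80.7 and 76.8 CPM in wild type and at 28.1 and 47.2, then 18.9 and 20.4 CPM in the knockout (-1.76 ± 0.33, adjusted p = 0.016). Its partner Atg13 stood at 26.0 and 26.5, then 114 and 114 CPM in wild type and at 13.9 and 24.3, then 18.6 and 19.6 CPM in the knockout (-2.14 ± 0.34, adjusted p = 0.00902). The calls of Ulk1, of Atg13 and of Map1lc3b, an ATG8 gene (-1.18 ± 0.20, adjusted p = 0.012), were lost without any 1 of the 6 libraries outside the knockout rich pair. Sqstm1, the receptor p62, rose in both, to 794 and 814 CPM in wild type and 831 and 812 CPM in the knockout, and its responses did not differ past the threshold (0.56 ± 0.39, adjusted p = 0.378). Its value was 0.21 (adjusted p = 0.0792) without knockout rich replicate 1 and 1.14 (adjusted p = 6.41e-14) without replicate 2, where it was called.

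**Figure D4:**
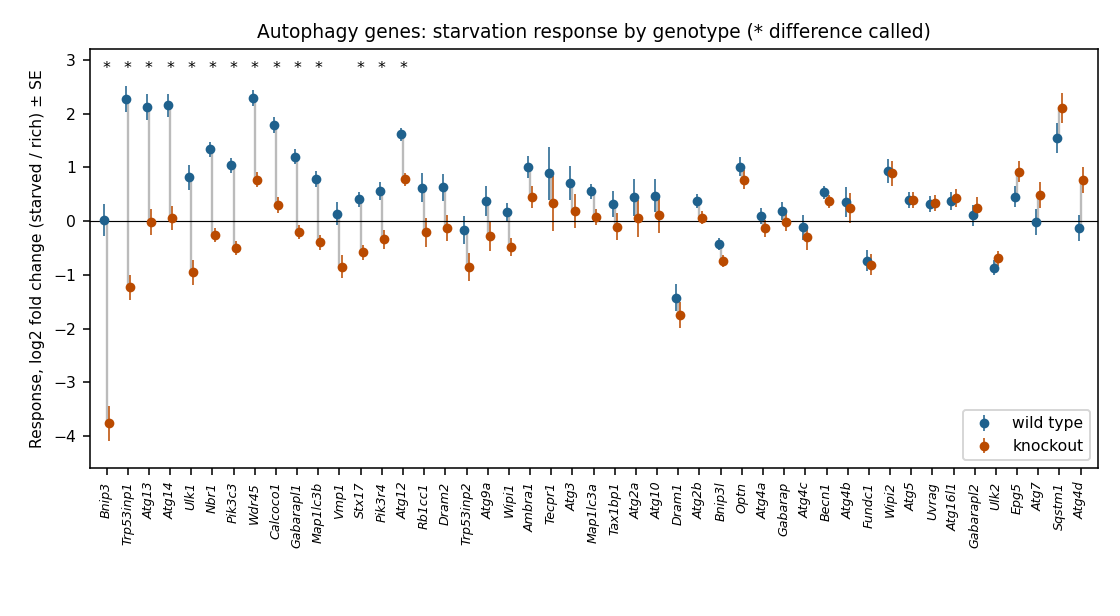
Log2 fold change on starvation (± SE) of the 47 autophagy genes in wild type (blue) and in the knockout (orange), ordered along the x axis by the difference between them, with an asterisk where that difference was called. The 14 called genes lie toward the left, with the knockout response below the wild-type one, and farther right the responses run close together or cross.

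Few lysosomal genes were called. Of 61 genes, 5 had a lower and 1 a higher response in the knockout (median -0.29), a share of 9.84% called, under the 13.3% of all genes. Ctns, a called member that exports cystine from lysosomes, stood at 14.9 and 14.6 then 50.2 and 45.4 CPM in wild type and 11.3 and 21.4 then 12.5 and 14.2 CPM in the knockout (-2.01 ± 0.39, adjusted p = 0.0187), and its call was lost without any 1 of the 6 libraries outside the knockout rich pair. Those fits called 0 or 1 genes of the list, while without knockout rich replicate 1 there were 29 lower and 5 higher and without replicate 2 there were 24 and 18. In the fit of all libraries no call was made among the 15 proton pump subunits or the 3 transcription factors.

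Endoplasmic reticulum stress genes rose in both genotypes, and part of them less in the knockout. Chaperones of this compartment fold secreted proteins, and a degradation arm removes those that fail. Of 26 genes, 24 rose in wild type and 18 in the knockout. The difference was called for 11, with 10 lower and 1 higher in the knockout response (median -0.72), among them 3 of 7 degradation genes and 0 of 4 stress sensors. A fit without knockout rich replicate 1 gave 20 lower and 3 higher, without replicate 2 there were 17 and 6, and 2 to 3 were lower without any 1 other library. Sel1l, a degradation adaptor, rose from 94.8 and 94.4 to 392 and 372 CPM in wild type and from 101 and 106 to 176 and 177 CPM in the knockout (-1.25 ± 0.16, adjusted p = 0.00424). Edem1, which marks misfolded glycoproteins, rose in wild type only, from 72.2 and 66.6 to 168 and 170 CPM, with 140 and 116 against 106 and 104 CPM in the knockout (-1.57 ± 0.19).

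The CCAAT box, bound by NF-Y, was found on either strand in 20 of 23 promoters of these genes (87%), against 38.2% over all tested genes, and in all 10 promoters of called members. In the other lists searched the share ran from 8% (NF-kB and inflammation) to 58.3% (DNA replication and the integrated stress response). Sel1l has 4 CCAAT boxes, shown in capitals, and is printed as a member that rose in both genotypes to different levels (GRCm38.p6, chr12:91849108-91849407, minus strand).
Sel1l: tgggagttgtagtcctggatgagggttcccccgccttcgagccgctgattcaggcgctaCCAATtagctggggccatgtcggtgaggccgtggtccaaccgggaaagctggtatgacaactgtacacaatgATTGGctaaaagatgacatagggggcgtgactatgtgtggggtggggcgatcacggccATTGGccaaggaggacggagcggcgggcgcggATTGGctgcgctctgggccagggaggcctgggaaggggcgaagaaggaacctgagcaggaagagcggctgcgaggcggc

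The integrated stress response, driven by ATF4 and its partners, rose in 28 of 35 genes in wild type and 20 in the knockout, with 0 falling in either. The difference was called for 8 lower and 1 higher (median -0.46), with 24 lower and 5 higher without knockout rich replicate 1 and 13 of each without replicate 2, where the median was 0.02. Without any 1 other library 2 to 3 were lower. Ddit3, which encodes the stress factor CHOP, rose from 19.4 and 19.6 to 476 and 543 CPM in wild type and from 19.2 and 23.3 to 205 and 187 CPM in the knockout (-1.51 ± 0.21, adjusted p = 0.00554), a call lost without knockout starved replicate 2. Aldh1l2, a mitochondrial folate enzyme, rose from 121 and 121 to 615 and 527 CPM and from 250.4 and 218 to 382 and 380 CPM (-1.53 ± 0.19).

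Hypoxia targets, genes induced by HIF when oxygen is scarce, had 8 lower and 1 higher of 17 (median -0.82), and 5 to 6 were lower without any 1 of the libraries outside the knockout rich pair. With knockout rich replicate 1 left out there were 9 lower and 1 higher, and without replicate 2 there were 9 and 3. Beside Bnip3 these included Kdm3a, a histone demethylase, which rose from 67.7 and 66.0 to 120 and 114 CPM in wild type and fell from 193 and 149 to 92.05 and 89.8 CPM in the knockout (-1.72 ± 0.21). Mxi1, an antagonist of MYC, rose from 26.7 and 27.6 to 37.2 and 34.97 CPM and fell from 41.7 and 43.0 to 18.6 and 18.8 CPM (-1.59 ± 0.19). Bhlhe40, a transcriptional repressor, was the member with the higher response, falling in wild type only from 36.8 and 36.2 to 9.41 and 6.37 CPM, with 126 and 154 against 162 and 161 CPM in the knockout (2.42 ± 0.28).

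Cholesterol genes mostly fell on starvation in both genotypes and differed in a few members. Of 26 genes of cholesterol synthesis and control, 17 fell in wild type and 16 in the knockout, and 5 had a lower and 1 a higher response in the knockout (median -0.44), with 11 and 5 without knockout rich replicate 1 and 13 and 6 without replicate 2. Abca1, which exports cholesterol, fell in both, from 24.1 and 24.8 to 18.5 and 16.0 CPM in wild type and from 50.5 and 49.7 to 8.46 and 7.19 CPM in the knockout (-2.17 ± 0.23). Of 13 fatty acid synthesis genes, 6 fell in wild type and 7 in the knockout, and 3 had the higher response in the knockout, Scd2 and Elovl6 among them. Without knockout rich replicate 1 there were 7 higher and 2 lower, without replicate 2 there were 8 and 2, and 2 were higher without any 1 other library. Scd2, a desaturase, fell from 1695 and 1681 to 161 and 147 CPM in wild type and from 1803 and 2267 to 590.1 and 583 CPM in the knockout (1.66 ± 0.21). Irs1, the adaptor of the insulin receptor, fell in wild type only, from 62.9 and 65.2 to 6.26 and 7.17 CPM, with 66.0 and 65.5 against 49.6 and 49.2 CPM in the knockout (2.84 ± 0.19, adjusted p = 0.000616). The insulin receptor gene Insr rose in wild type only, from 28.2 and 26.2 to 57.5 and 56.0 CPM, with 47.0 and 41.8 against 31.7 and 33.0 CPM (-1.51 ± 0.19).

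Other genes with a response in 1 genotype only had large differences. Klhl24, a ubiquitin ligase adaptor, rose in wild type only, from 6.09 and 4.92 to 66.1 and 65.6 CPM, with 30.9 and 21.8 against 17.2 and 13.4 CPM in the knockout (-4.36 ± 0.33, adjusted p = 0.000895). Slc7a3, a carrier of cationic amino acids, rose in wild type only, from 8.22 and 6.42 to 91.7 and 94.9 CPM, and stayed at or under 0.301 CPM in the knockout (-4.00 ± 0.78, adjusted p = 0.0187), a call lost without any 1 of the wild-type libraries. Epha2, an ephrin receptor kinase, rose in the knockout only, from 44.4 and 67.7 to 423 and 433 CPM, with 146 and 133 against 116 and 114 CPM in wild type (3.21 ± 0.28, adjusted p = 0.00131). Sesn1, a stress-induced inhibitor of growth signalling, fell in the knockout only, from 27.8 and 27.5 to 9.10 and 8.61 CPM, with 26.9 and 29.2 against 28.3 and 26.2 CPM in wild type (-1.60 ± 0.21, adjusted p = 0.00446). The starved knockout stood apart for Sesn1, and the other groups lay together. Txnip, a glucose-induced brake on glucose uptake, fell in both genotypes to the same level, from 20.4 and 20.5 to 5.62 and 6.30 CPM in wild type and from 141 and 144 to 5.09 and 6.28 CPM in the knockout (-2.87 ± 0.22, adjusted p = 0.000955).

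Some of the largest differences rested on groups near 0 counts, as did 64 of the 1850 called genes (3.46%) by the measure of a group with 3 counts or fewer. Blnk, an adaptor of B cell signalling, went from 21 to 0 counts over the wild-type libraries, at least 7.62-fold lower, and from 21.2 and 16.0 to 35.5 and 34.6 CPM in the knockout. Car6, a secreted carbonic anhydrase, went from 0 to 271 counts in wild type, at least 83.0-fold higher, and from 0.492 and 1.53 to 13.2 and 11.8 CPM in the knockout, and its call was lost without any 1 of the 6 libraries outside the knockout rich pair. Wnt10b, a secreted signalling protein, fell in wild type from 37.4 and 38.1 to 9.41 and 9.80 CPM, while its knockout count went from 0 to 11, at least 2.26-fold higher, with no call of its own; the difference was lost without either rich or either starved wild-type library, or without knockout starved replicate 2. Fitted fold changes for such genes depend on the prior count and bound nothing.

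Lists of housekeeping functions had few calls in the fit of all libraries. Their larger counts without a knockout rich library are read against the shares of all genes called in those fits, given above. Of 45 cytosolic ribosomal protein genes 1 was called lower (median -0.35); without knockout rich replicate 1 there were 42 lower and 0 higher, and without replicate 2 there were 16 and 18, so that no direction held, and near-identical copies make these counts uncertain. Of 31 proteasome genes 3 were higher, of 33 respiratory chain genes 2, and of 20 cytosolic tRNA synthetases 2, with 0 lower in each, and without any 1 of the 6 libraries outside the knockout rich pair 0 of these were called. When knockout rich replicate 1 was left out, the proteasome had 21 higher and 1 lower, the respiratory chain 8 and 6 and the synthetases 8 and 4, and without replicate 2 they had 21 and 5, 18 and 3, and 11 and 5. Of 7 genes of CARM1 and other arginine methyltransferases edgeR called 0, with 3 at an unadjusted p below 0.05, while DESeq2 called 3 and limma-voom 2, or 1 with library quality weights, each with the higher response in the knockout. Called by edgeR were 3 without knockout rich replicate 1 and 6 without replicate 2, all higher. Of 20 glycolysis genes 1 was higher and 2 were lower (median 0.17). With knockout rich replicate 1 left out 8 were higher and 6 lower (median -0.03), with replicate 2 left out 14 and 3 (median 0.65), and with any 1 other library left out 0 and 2, so that no direction held.

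**Figure D5:**
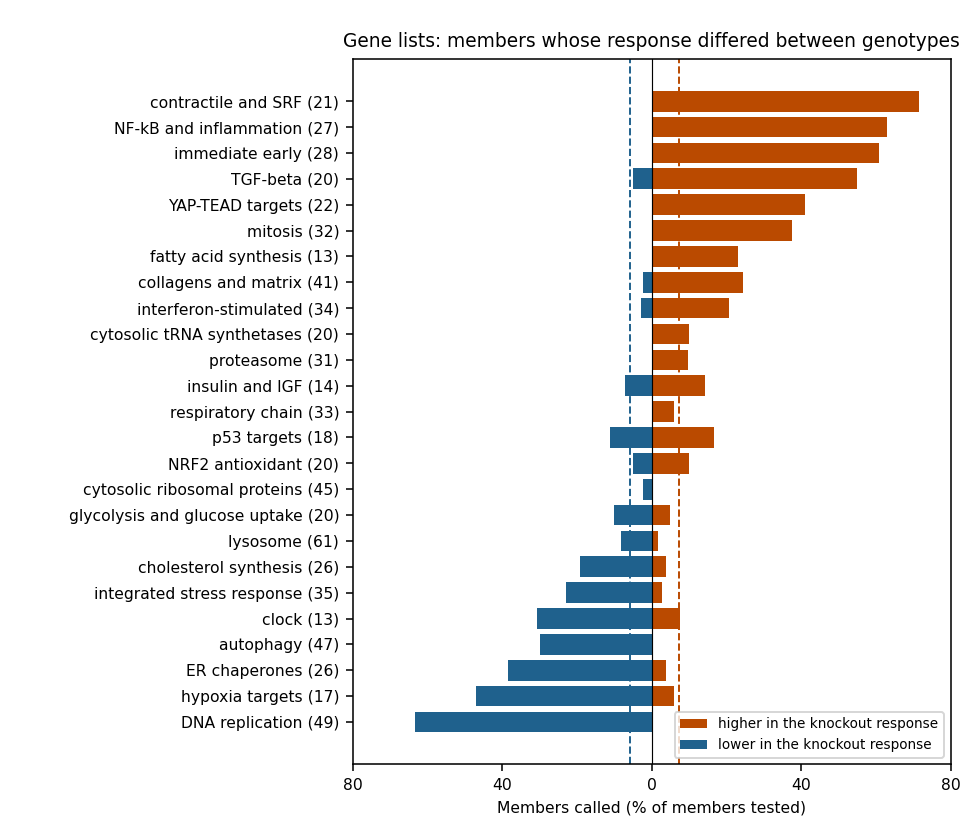
Members with a called difference between responses, as a percentage of members tested (number in brackets), for 25 gene lists; orange bars to the right count the higher response in the knockout and blue bars to the left the lower one. Dashed lines mark the shares over all genes tested, 7.42% higher and 5.91% lower; the contractile, NF-kB, immediate early and TGF-beta lists reach farthest right, and DNA replication farthest left.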

How the data were processed

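RNA-seq of 8 libraries in 4 groups of 2 was used; the 4 chromatin libraries of the series were not used here. The deposited values are whole-number counts per RefSeq transcript, not normalized. The submitters' processing notes name the mm9 build, TopHat2 2.0.9 and bedtools. Strand and multiple matches are not described there, so that antisense, overlapping and near-identical genes may share reads. The table held 31055 transcripts of 23366 symbols, and for the 4447 symbols with several transcripts the one with the highest total was kept. Groups and replicate numbers came from the sample titles.

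In R 4.3.3, edgeR 4.0.16 kept 13882 genes (filterByExpr) and scaled libraries by TMM. A single model held all libraries, with a mean for each group (biological coefficient of variation 18.5%), and quasi-likelihood tests gave the difference between responses, each response and each genotype contrast, with Benjamini-Hochberg adjustment over the genes tested. The SE is the log2 value divided by the square root of F. At the depths found, 3 counts correspond to 0.107 to 0.355 CPM per library before TMM scaling. In the shallowest library they correspond to 0.369 CPM on the scaled values printed here. Where a group had 0 counts, the fold is a bound that sets the group to 3 counts, covering counting error only.

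The comparison, its members and 33 gene lists (777 genes) were chosen with earlier results of these data known, and their directions are not independent evidence. The text names Carm1 and Xist, the 10 genes with the largest difference each way and 6 per class (at least 5 CPM in a group, libraries of a called response apart, no predicted genes), and the 4 members of each list with the smallest p; other genes are said to be chosen after their values were seen. A few genes that meet this rule are not reported here. Promoters, 250 bases before to 50 after a start, came from RefSeq (GRCm38.p6) and matched 10848 of the tested genes by symbol. The fit was tested on simulated data with known differences and the same spread in every group, unlike the knockout rich pair here. It made 101 calls, 7 of them false. It recovered 81 of 94 differences of 4-fold but only 13 of 102 of 2-fold, so that a 2-fold difference was mostly missed. Alternatives were DESeq2 1.42.0, limma-voom 3.58.1 with and without library quality weights, RLE (relative log expression) factors, unscaled totals, the filter removed or set to 5 CPM in 2 or more libraries, a replicate block, other transcript choices, other thresholds and leaving out each library.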

Additional observations from a re-analysis of the deposited data

Results flagged for a closer look

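A test of the difference itself, the interaction of genotype and starvation, marked 1850 genes. Any called gene meets this criterion by construction, and the values of the 10 genes with the largest difference in each direction, among those with at least 5 CPM in a group and called responses set apart, are given here, as log2 differences (knockout response minus wild-type response). The higher responses in the knockout were those of Cxcl5 (7.72), Wnt10b (7.39), Angpt1 (7.32), Blnk (7.23), Rgs16 (7.04), Egr2 (6.80), Cyr61 (6.71), Tnfaip3 (6.71), Ctgf (6.43) and Ccl2 (6.42). The lower responses were those of Car6 (-6.41), Epb4.1 (-5.68), Parm1 (-5.66), Cyp2c55 (-4.80), Fam129a (-4.54), Klhl24 (-4.36), B4galnt2 (-4.03), Slc7a3 (-4.00), Onecut2 (-3.87) and Peg3as (-3.87). Ccl2, Ctgf, Cyr61, Tnfaip3, Blnk, Cxcl5, Egr2 and Klhl24 were called in all 8 fits that left out a library. Values of genes with a group at or near 0 counts, such as Cxcl5, Wnt10b, Angpt1, Car6 and Parm1, depend on the prior count and bound nothing. Peg3as is antisense to another gene, and without strand its reads cannot be told apart from those of its partner.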

How the results depend on the processing

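All 1850 called genes kept their direction under every setting in which they were tested, except 3 with the transcript of the lowest total. The settings reuse the libraries on which these genes were chosen, so this agreement was largely built in. RLE factors gave 1848 calls, total counts 1839, no filter 1858, a stricter filter 1831, limma-voom 2149, limma-voom with library quality weights 2201, the lowest transcript 1810 and the mean over transcripts 1847. DESeq2 called 2880 genes (1569 higher and 1311 lower in the knockout response), 1840 of them shared with the 1850. With DESeq2 the classes held 146 (wild type rose and knockout fell), 257 (knockout only, rose), 403 (knockout only, fell), 102 (both rose), 191 (both fell) and 151 (neither). With library quality weights, which gave the knockout rich libraries 0.106 and 0.167, 962 genes fell in wild type only, and 74 rose and 94 fell in the knockout only. At a threshold of 0.01 in all 3 tests the classes held 59 and 12 (opposite, wild type fell and wild type rose), 112 and 252 (wild type only, rose and fell), 69 and 63 (knockout only, rose and fell), 8 (both rose), 22 (both fell) and 15 (neither). At 0.10 they held 181 (wild type rose and knockout fell), 626 (wild type only, rose), 247 and 403 (knockout only, rose and fell), 106 (both rose) and 192 (both fell). The cause of these moves was not tested, other than the thresholds' own construction. With 1 library left out, calls ran from 452 to 8020, higher ones from 317 to 4575 and lower ones from 124 to 3445. Opposite classes ran from 27 to 1352 (wild type fell) and from 6 to 1012 (wild type rose), wild type only from 56 to 1271 (rose) and from 157 to 1227 (fell), knockout only from 34 to 894 (rose) and from 19 to 736 (fell), both rose from 4 to 1178, both fell from 9 to 1031 and neither from 2 to 105. The upper ends come from leaving out a knockout rich library, where without replicate 2 the median difference of all genes moved to 0.18. With the replicate block 1490 genes were called (882 higher and 608 lower), 1468 of them shared. Deviations of same-numbered replicates correlated at -0.0488 to 0.195 between groups, the highest between the rich and the starved knockout. With 2 libraries per group these values cannot decide whether same-numbered replicates were paired. Depth limits differences in low genes, where a count of 0 allows up to 0.369 CPM in the shallowest library.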

Other observations

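Some smaller lists held single genes called in all 8 fits that left out 1 library. Of 20 antioxidant genes controlled by NRF2, 2 had a higher and 1 a lower response in the knockout (median 0.46), a share near the 13.3% of all genes called. Without knockout rich replicate 1 there were 10 and 3, without replicate 2 there were 13 and 3, where 49.4% and 56.4% of all genes were called, and 1 to 2 were higher without any 1 other library. Hmox1, the enzyme that degrades heme, rose in both genotypes, from 57.9 and 56.2 to 154 and 162 CPM in wild type and from 30.1 and 36.8 to 254 and 246 CPM in the knockout (log2 difference 1.43 ± 0.19, adjusted p = 0.00505). Of 13 clock genes, 1 was higher and 4 were lower (median -0.06), with 4 and 5 without knockout rich replicate 1, 5 and 4 without replicate 2, and 1 higher and 0 to 1 lower without any 1 other library. Nr1d1, a repressor of the clock, fell in wild type only, from 21.1 and 23.5 to 7.17 and 7.44 CPM, with 34.5 and 44.7 against 56.3 and 55.5 CPM in the knockout (2.10 ± 0.24, adjusted p = 0.00318). Of 18 p53 targets, 3 were higher and 2 lower (median -0.06), with 7 of each without knockout rich replicate 1, 8 and 7 without replicate 2, and 1 and 2 without any 1 other library.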
